A study of Mus musculus with 61 samples.

Results

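The 38 genes described here are mouse genes that type I interferon is known to induce, most of which act against viruses. They were taken by symbol from the deposited gene counts, where they are 38 of 24421 gene rows. The rule that names them uses no measured value, but the list was chosen with earlier results of these data known. Shares of the 38 beside those of all genes are therefore descriptive. All 38 had at least 10 reads in the splenic T cells, in whole spleen and in both sets of CD4 T cells, so all were tested in every comparison.

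Type I interferons bind a receptor that activates JAK1 and TYK2, and the transcription factor complex ISGF3, which holds STAT2 and IRF9, then binds the interferon-stimulated response element of its target genes. The products sense viral RNA or DNA, block viral translation, entry or assembly, and tag or trim proteins through ISG15. STAT5B is another member of the STAT family, is activated by cytokines such as IL-2 and IL-7, and binds a different element, the GAS motif. The list holds IFIT proteins (Ifit1, Ifit2, Ifit3), which bind viral RNA, membrane proteins that block viral entry (Ifitm1, Ifitm2, Ifitm3), the ubiquitin-like ISG15 with its protease and ligase (Isg15, Usp18, Herc6), the Mx GTPases (Mx1, Mx2), the oligoadenylate synthetase family (Oas1a, Oas1g, Oas2, Oas3, Oasl1, Oasl2), RNA and DNA sensors (Ifih1, Ddx58, Dhx58, Zbp1, Eif2ak2), TRIM, PARP and DTX proteins (Trim21, Trim25, Trim30a, Parp9, Parp14, Dtx3l), nucleotide enzymes and a nuclease (Rsad2, Cmpk2, Isg20) and others (Ifi35, Ifi44, Rtp4, Bst2, Xaf1, Samd9l, Ifi27).

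Total RNA of C57BL/6 mice at 2 months of age was sequenced in 61 libraries to compare 2 substitutions of STAT5B, Y665F and Y665H, with the native protein. T cells isolated from spleen with a negative selection kit were kept for 24 h in IL-2 plus IL-7 and came from wild-type mice (WT, n = 4), Stat5b Y665H knock-in mice made by base editing (n = 3) and Stat5b Y665F knock-in mice made with Cas9 and an oligonucleotide (n = 4), and Y665F T cells without the 2 interleukins were also sequenced (n = 3). Another Y665H T cell library, replicate 4, was deposited, but its counts equal the sum of Y665H replicates 1 and 2 in all 24426 rows, so it is no separate sample, and 60 of the 61 libraries were used. Whole spleen was sequenced from WT (n = 4), Y665H (n = 5) and Y665F (n = 7) mice. The titles of these libraries read splenocyte, while the paper's methods name frozen spleen tissue, which is followed here. Naive CD4 T cells sorted from pooled lymph nodes and spleens were activated, transduced with a retrovirus, sorted for GFP and cultured for 48 h with IL-2. Their retrovirus was empty or encoded STAT5B, the leukemia-associated mutant N642H, Y665H or Y665F (n = 3 each, 15 libraries in cells lacking Stat5a and Stat5b and 15 in WT cells). In the cells without STAT5, here called null cells, the floxed Stat5a and Stat5b genes were deleted by Cd4-Cre, which acts in both CD4 and CD8 lineages from the double-positive thymocyte stage. The genotype label reads Stat5a/b flox/flox in all 30 CD4 libraries, so null and WT were told apart by the titles. The labels give neither the zygosity of the knock-in mice nor any interferon treatment, and T cells of WT or Y665H mice without interleukins were not analysed here.

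Reads on genes ranged from 18825994 to 49850689 in the CD4 libraries and from 24203179 to 43330536 in spleen, but from 2017012 to 27394249 in the splenic T cells. Stat5b stood at 2.78 to 9.49 CPM (the count of a gene scaled to the adjusted total of its library) in null cells with the empty vector and at 186 to 365 CPM in null cells given STAT5B or a mutant, as the titles say. The substitutions in the knock-in mice cannot be checked from gene counts. T cell markers (12 genes) summed to 1173 to 4219 CPM in the T cell libraries and to 3740.5 to 5872 CPM in the CD4 libraries. Y665F T cell libraries with interleukins, replicates 3 and 4, stood apart: their B cell markers summed to 762 and 224 CPM against 17.5 to 121 CPM in WT, and erythroid markers reached 1036 CPM in replicate 3. Read pairs assigned to no gene made up 84.03 and 79.6% of them, 67.6 and 72.8% of replicates 1 and 2, and 63.9 to 72.6% in WT. Without interleukins the share was 77.7 to 85.7%. Replicate 3 also held the fewest reads on genes of its group, 2851451. The part of these shares in the results was not tested. Among spleens, Y665H replicate 1 stood apart with 769 CPM of erythroid markers, where the other Y665H libraries held 3594 to 5126 CPM. Results for called members that rest on these libraries are given with and without them. Results for other genes of the pathway are given only with them.

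Sequence near the transcription start is shown because ISGF3 acts through this element. The letters GAAA, 2 bases of any kind and GAAA again were searched on both strands in the 250 bases before and 50 bases after each RefSeq start (GRCm38.p6). They occurred in 15 of the 28 genes with a window (53.6%), against 3.99% of the 27025 genes in the RefSeq set. The STAT motif TTCNNNGAA occurred in 7 of the 28 (25%), against 9.55% of all genes. The runs below are 30 bases read along the strand of the gene, with the matched letters or their complement in capitals, for genes named in the comparisons that follow.
Ifit1, chr19:34640794-34640823 (plus strand): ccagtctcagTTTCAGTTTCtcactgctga
Ifit3, chr19:34583397-34583426 (plus strand): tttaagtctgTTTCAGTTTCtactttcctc
Isg15, chr4:156200871-156200900 (minus strand): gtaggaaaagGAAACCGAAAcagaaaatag
Oas1g, chr5:120887606-120887635 (minus strand): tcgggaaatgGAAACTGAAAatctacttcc
Oas3, chr5:120777715-120777744 (minus strand): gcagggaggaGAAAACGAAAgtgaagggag
Rsad2, chr12:26456553-26456582 (minus strand): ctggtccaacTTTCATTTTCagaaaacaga
Ddx58, chr4:40239804-40239833 (minus strand): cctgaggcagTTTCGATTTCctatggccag
In Isg15, overlapping matches were counted separately, giving 3 in its window. The 30 bases shown for Oas1g also occur at Oas1a (chr5:120907520-120907549, minus strand), its neighbour and close paralog. STAT motif matches lay in the windows of Ifit2, Ifitm3, Oas1a, Eif2ak2, Isg20, Ifi35 and Bst2. A match is a description and not evidence of binding. Usp18, Mx1, Mx2, Oas2, Dhx58, Zbp1, Parp9, Parp14, Rtp4 and Ifi27 had no RefSeq window.

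Several members lie side by side, by the GENCODE annotation of GRCm38. Ifit1 (chr19:34640871-34650009), Ifit2 (chr19:34550694-34576419) and Ifit3 (chr19:34583531-34588731) share a stretch of chromosome 19. On chromosome 5, Oas2 (chr5:120730333-120749853), Oas3 (chr5:120753098-120777661), Oas1g (chr5:120876142-120887613) and Oas1a (chr5:120896256-120907521) follow each other, and Oasl2 (chr5:114896936-114912234) lies beside Oasl1. Rsad2 (chr12:26442746-26456452) and Cmpk2 (chr12:26469204-26479837) are neighbours on chromosome 12. Reads that fit several places were not counted, so the split between Ifit3 and its near copy Ifit3b, between Oas1a and Oas1g, and among the Ifitm genes is uncertain.

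In splenic T cells cultured with IL-2 and IL-7, 9 of the 38 genes rose in Y665F against WT and 0 fell, where 1.06% of all genes tested were called higher and 0.265% lower. A gene counted as called when its p in edgeR's quasi-likelihood test, adjusted over all genes by Benjamini-Hochberg, was below 0.05 and its log2 fold change exceeded 1 in size. The 9 were Rsad2, Oasl2, Oas2, Ifit3, Mx2, Ifit1, Rtp4, Oas3 and Zbp1. The median log2 fold change of the 38 genes was 0.76, against 0.08 over all genes, and 33 of 38 estimates were positive. The OAS family gave 3 of its 6 members and the IFIT genes 2 of 3, while none of the 3 Ifitm genes and none of the 6 TRIM, PARP and DTX genes passed. By the unadjusted p under 0.05, 19 of 38 were higher and 0 lower, where 8.85% of all genes were higher and 9.25% lower.

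**Figure D1:**
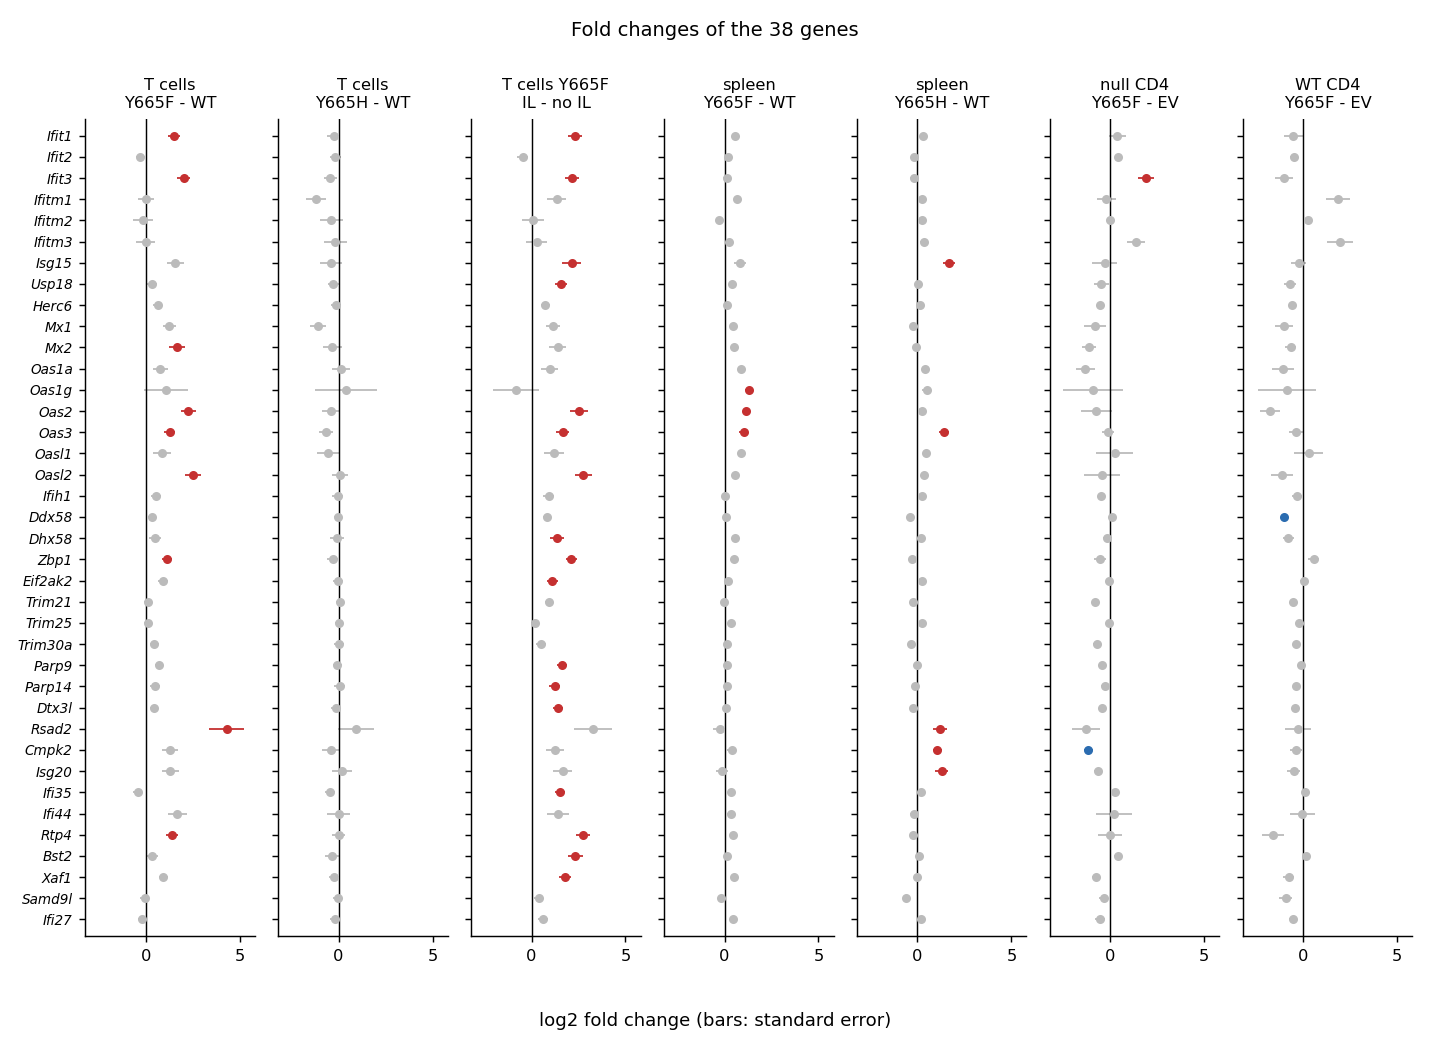
Log2 fold change (x axis) of each of the 38 genes (y axis, by role) in 7 comparisons, with bars for the SE, red for called higher and blue for called lower. The called genes lie on the higher side in T cells, for Y665F against WT and with against without interleukins, and in both spleen panels, while the null CD4 panel holds 1 on either side and the WT CD4 panel 1 on the lower side.

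Values per library are given in CPM in the order of replicates. Ifit3, of the IFIT proteins that bind viral RNA, was at 29.9, 17.5, 21.4 and 20.6 CPM in WT, 10.04, 14.5 and 23.6 in Y665H, 99.6, 30.5, 89.2 and 145 in Y665F with interleukins and 19.6, 17.8 and 23.8 without. All 4 Y665F libraries with interleukins lay above every other T cell library, replicate 2 only narrowly. The log2 fold change against WT was 2.03 (SE 0.33) with an adjusted p of 0.00241. Ifit1 was at 36.3, 26.2, 24.6 and 19.1 CPM in WT and 80.4, 31.5, 99.2 and 90.9 in Y665F, where replicate 2 alone fell within the WT range, and rose by 1.505 (SE 0.32) on the log2 scale (adjusted p = 0.0173). The third of the family, Ifit2, was at 204, 182, 148 and 178 CPM in WT and 197, 144, 107 and 139.7 CPM in Y665F, overlapping, with a log2 fold change of -0.27 (adjusted p = 0.571).

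In the OAS family, whose synthetases make the messenger that activates RNase L, Oasl2 was at 13.1, 7.04, 9.62 and 5.61 CPM in WT, 3.903, 10.6 and 12.9 in Y665H, 41.6, 14.1, 72.8 and 76.7 in Y665F and 8.48, 7.72 and 6.44 without interleukins. All 4 Y665F libraries with interleukins were above all others, replicate 2 only narrowly. Its log2 fold change against WT was 2.53 (SE 0.41, adjusted p = 0.002296). Oas2 was at 13.04, 6.99, 8.88 and 5.68 CPM in WT and 23.4, 11.8, 45.5 and 87.4 CPM in Y665F, where replicate 2 lay below WT replicate 1, and rose by 2.28 (SE 0.42, adjusted p = 0.00661). Oas3 averaged 26.5 ± 9.41 CPM (SD, n = 4) in Y665F and 10.8 ± 2.49 CPM (SD, n = 4) in WT, a log2 fold change of 1.28 (SE 0.31). Oas1a, Oas1g and Oasl1 had log2 fold changes of 0.79, 1.09 and 0.86 that did not pass (adjusted p = 0.293, 0.641 and 0.331).

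Among the other called genes, Zbp1, a sensor of left-handed nucleic acid, was at 189 ± 68.7 CPM in Y665F and 86.6 ± 18.96 CPM in WT (SD, n = 4 each), without overlap and with a log2 fold change of 1.13 (SE 0.26, adjusted p = 0.0227). Rtp4 was at 42.98, 22.5, 29.1 and 17.9 CPM in WT, 10.9, 37.1 and 36.3 in Y665H, 80.7, 43.96, 73.7 and 98.8 in Y665F and 11.5, 10.8 and 11.4 without interleukins. Its Y665F values lay above the WT range, replicate 2 only narrowly, its values without interleukins lay below every WT library, and it rose by 1.404 (SE 0.32) over WT (adjusted p = 0.0219). Mx2 was at 4.10, 2.70, 2.01 and 2.11 CPM in WT and 4.63, 3.83, 12.6 and 13.7 CPM in Y665F, overlapping. Its log2 fold change was 1.65 (SE 0.42, adjusted p = 0.0472). Mx1, an antiviral GTPase gene that carries a disabling deletion in C57BL/6 mice, was at 10.5, 6.99, 5.84 and 4.62 CPM in WT, 2.23, 1.45 and 4.93 in Y665H and 14.4, 10.9, 15.9 and 25.5 in Y665F. The groups of Mx1 values did not overlap between Y665F and WT, the closest pair lying at 10.9 and 10.5 CPM, and the log2 fold change of 1.26 (SE 0.35) had an adjusted p of 0.0679. Isg15, also without overlap, was at 2.13, 1.299, 1.97 and 1.06 CPM in WT and 4.18, 2.24, 3.23 and 9.45 in Y665F, with a log2 fold change of 1.58 (SE 0.45, adjusted p = 0.0778).

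Rsad2, which encodes viperin, had the largest fold change and the widest spread. It was at 6.398, 4.45, 5.26 and 1.45 CPM in WT, 1.39, 11.1 and 12.2 in Y665H, 5.43, 3.18, 323 and 25.7 in Y665F and 5.58, 16.1 and 5.26 without interleukins. Replicates 1 and 2 of Y665F lay within the WT range, replicate 4 above every WT and Y665H library and replicate 3 far above that. The log2 fold change of 4.31 (SE 0.94) against WT (adjusted p = 0.0185) became 1.37 without replicate 3 (adjusted p = 0.364) and -0.045 without replicates 3 and 4 (adjusted p = 1). Its neighbour Cmpk2, a mitochondrial nucleotide kinase, was at 4.92, 4.996, 4.605 and 3.5005 CPM in WT and 8.12, 5.34, 18.8 and 13.4 CPM in Y665F, with a log2 fold change of 1.31 (adjusted p = 0.124).

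**Figure D2:**
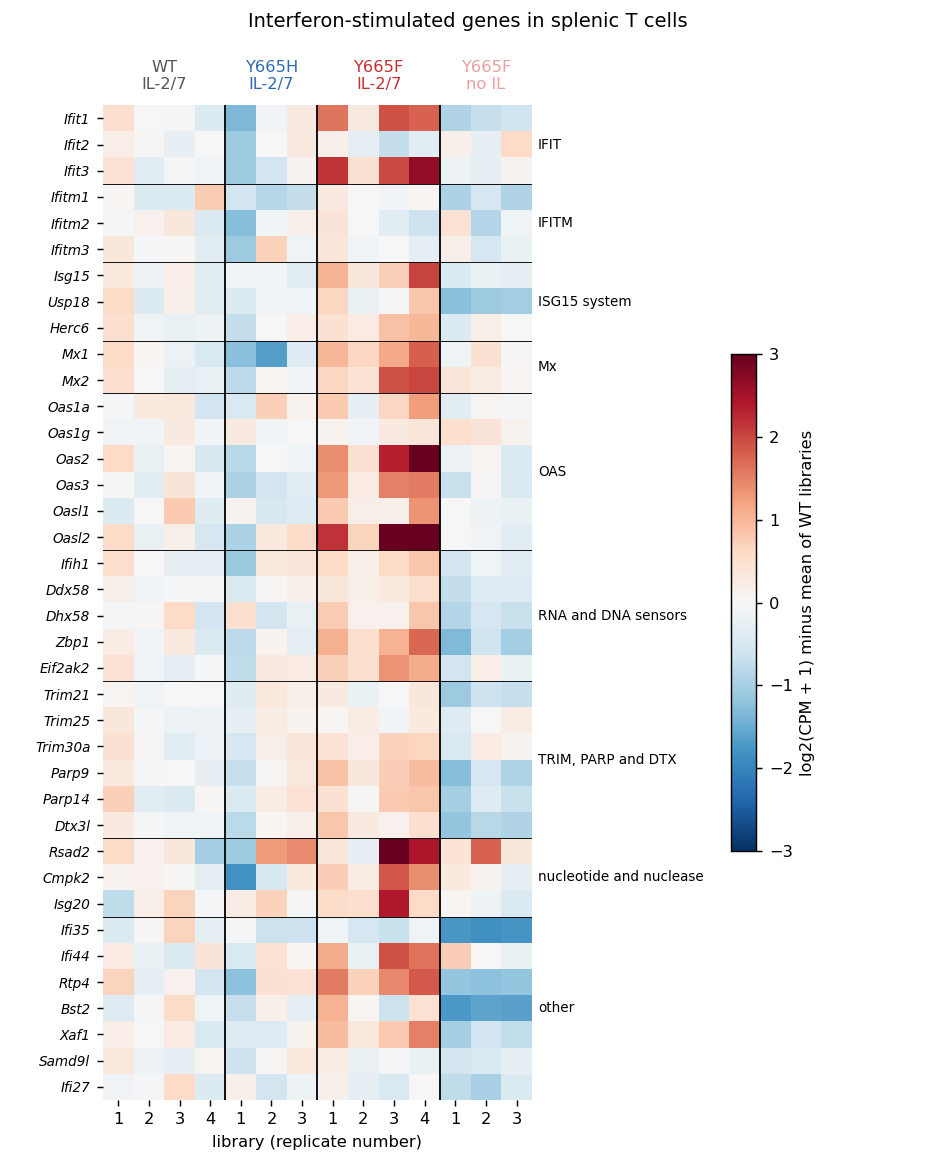
Heat map of the 38 genes (rows, by role) in the 14 splenic T cell libraries (columns, by group and replicate), coloured by log2(CPM + 1) minus the mean of the WT libraries, with the colour saturating at 3 in either direction. Y665F libraries with interleukins are red over most rows, replicate 2 least so, and Y665F libraries without interleukins are blue in many rows.

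The count of called genes depended on which Y665F libraries were used. Replicate 2 held the lowest of the 4 Y665F values for 27 of the 38 genes, and without it 14 genes were called. Without replicate 3, 6 were called, and without replicate 4, 3 were called, as was also the case without WT replicate 2 or without WT replicate 4. Here and below, counts of called genes with libraries left out or added are given without the share of all genes called under that setting. They can therefore not be set against the shares of the main test. Without both replicates 3 and 4, which hold the most B cell and erythroid reads, 0 were called in edgeR, with 12 higher and 0 lower at an unadjusted p under 0.05, where 3.16% of all genes were higher and 2.02% lower, and the log2 fold changes were 1.64 for Oasl2, 1.53 for Ifit3, 1.13 for Rtp4, 1.06 for Ifit1 and 1.01 for Oas2. For the remaining called genes, the lowest log2 fold changes over all alternatives were 0.89 for Oas3, 0.76 for Zbp1, 0.617 for Mx2 and -0.045 for Rsad2. Other markers also moved: neutrophil markers summed to 81.6 to 301 CPM in Y665F and 10.2 to 17.8 CPM in WT, and NK cell markers to 384 to 549 and 149 to 391 CPM, with Gzma called higher and Klra8 at 0 in all T cell libraries. In these bulk samples, a different number of cells of a type and a different amount of RNA per cell cannot be told apart. The part of these cells in the result was not tested. The paper also cautions that the mutations changed T cell subsets, with more central memory and fewer naive CD8 T cells in Y665F mice. The part of such subsets was not tested either.

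Y665H T cells gave no called gene against WT in edgeR, where 0% of all genes were called higher and 0% lower, and none of the 38 was called by DESeq2. At an unadjusted p under 0.05, 0 were higher and 2 lower, against 1.53% and 3.29% of all genes. The median log2 fold change was -0.16, against -0.12 over all genes. The estimates ran from -1.197 to 0.94. Mx1 stood at -1.09 (adjusted p = 0.943), Ifitm1 at -1.197 (adjusted p = 0.943) and Oas3 at -0.66 (adjusted p = 0.943) on the log2 scale. Read depth was lowest in this group, down to 2017012 reads on genes, and replicate 1 held the lowest of its 3 values for 29 of the 38 genes.

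Compared directly, Y665F T cells exceeded Y665H T cells in 10 of the 38 genes, with 0 lower, where 1.84% of all genes were called higher and 0.655% lower. This comparison and the one with WT share the Y665F libraries, so they are not independent. The log2 differences were 2.66 (SE 0.50) for Oas2, 2.46 (SE 0.39) for Ifit3, 2.45 (SE 0.47) for Oasl2, 2.35 (SE 0.43) for Mx1, 1.98 (SE 0.52) for Mx2, 1.95 (SE 0.36) for Oas3, 1.77 (SE 0.37) for Ifit1 and 1.18 (SE 0.30) for Xaf1. None of the 10 overlapped between the groups, where 44.7% of the 38 genes and 14.1% of all genes did not overlap. For Mx1, the lowest Y665F library was at 10.9 CPM and the highest Y665H library at 4.93 CPM. Rtp4 differed by 1.402 (SE 0.36, adjusted p = 0.0298) and Zbp1 by 1.44 (SE 0.29, adjusted p = 0.0056). Rsad2 stood at 3.37 (SE 1.04, adjusted p = 0.0891) and Isg15 at 1.98 (SE 0.57, adjusted p = 0.0628), and neither was called. Without Y665F replicates 3 and 4, 2 genes were called, Ifit3 at 1.94 (adjusted p = 0.0134) and Mx1 at 1.90 (adjusted p = 0.0422). Without Y665H replicate 1 the count was 6. Taking the summed library as a further Y665H sample gave 14, and taking it in place of replicates 1 and 2 gave 8. NK cell markers summed to 384 to 549 CPM in Y665F and 74.4 to 142 CPM in Y665H, with Gzma, Klrb1c and Klre1 called higher, and their part in the result was not tested.

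IL-2 and IL-7 went with higher levels of 17 of the 38 genes in Y665F T cells and lower levels of 0, where 2.04% of all genes were called higher and 0.592% lower. The paper describes T cells sequenced without interleukins as taken right after isolation. The 24 h in culture and the interleukins can therefore not be told apart in this comparison. The median was 1.34 on the log2 scale, against -0.13 over all genes, and 36 of 38 estimates were positive. The largest changes were in Oasl2, 2.76 (SE 0.46), Rtp4, 2.73 (SE 0.37), Oas2, 2.51 (SE 0.48), Bst2, 2.32 (SE 0.39), Ifit1, 2.29 (SE 0.37), Ifit3, 2.16 (SE 0.37), Isg15, 2.13 (SE 0.52), and Zbp1, 2.12 (SE 0.29). Parp9, a partner of the ubiquitin ligase Dtx3l, rose by 1.63 (SE 0.26, adjusted p = 0.000283). The other 8 called genes, Xaf1, Oas3, Usp18, Ifi35, Dtx3l, Dhx58, Parp14 and Eif2ak2, lay between 1.11 and 1.78. NK cell markers summed to 384 to 549 CPM with interleukins and 117 to 187 CPM without, with Gzma, Ncr1 and Klrb1c called higher, and their part in the result was not tested.

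Bst2, the tetherin that holds budding virus on the cell, was called with against without interleukins and not between genotypes. It was at 2.89, 3.35 and 3.19 CPM without interleukins, 25.8, 12.6, 7.34 and 16.4 CPM in Y665F with them, 8.86, 11.7, 18.01 and 10.8 CPM in WT and 6.97, 13.5 and 9.58 CPM in Y665H. Every library with interleukins lay above the 3 without, and Y665F overlapped WT, with a log2 fold change of 0.35 (adjusted p = 0.5799). Usp18, the protease that removes ISG15 and restrains the interferon receptor, was at 11.2, 12.6 and 13.2 CPM without interleukins, below all 11 libraries with them, and at 42.6, 21.03, 31.4 and 22.1 CPM in WT. Ifit2 was at 196, 149.9 and 269 CPM without interleukins, overlapping the Y665F libraries with them, and was not called. Without Y665F replicates 3 and 4, 12 of the 17 were called, Dhx58, Eif2ak2, Isg15, Oas2 and Parp14 being lost.

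**Figure D3:**
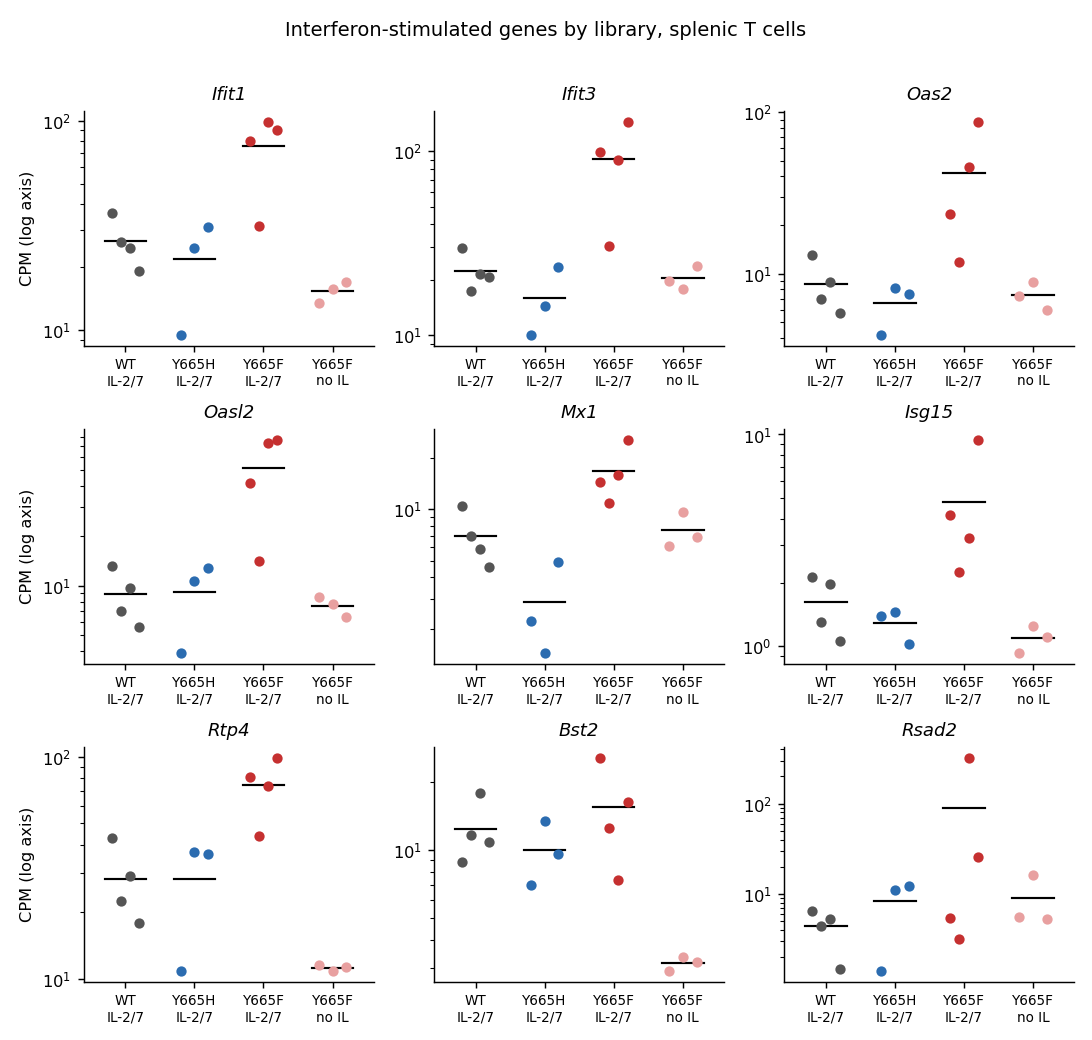
CPM per library (y axis, log scale) of 9 genes in the 4 groups of splenic T cells (x axis), 1 symbol per library and a bar at the group mean. Y665F with interleukins lies above the other groups for Oasl2, Isg15 and Mx1, while Rsad2 is high in replicate 3 at 323 CPM and replicate 4 at 25.7 CPM.

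The other genes of the pathway moved as follows in T cells. Of 18 type I interferon genes the highest value in any T cell library was 3.63 CPM, for Ifnk in Y665F replicate 4, and none was called. Ifng, the type II interferon, rose by 2.28 (SE 0.38) in Y665F against WT (17.9 ± 5.71 and 3.67 ± 1.44 CPM, SD, n = 4 each) and by 2.16 (SE 0.42) with interleukins. Against WT, 1 of 12 receptor and transducer genes was called, Stat2 at 1.11 (SE 0.25), with Gbp2, a guanylate-binding protein, at 1.83 (SE 0.33) as 1 of 17 interferon-gamma-linked genes. Stat2 was at 90.5, 64.2, 87.6 and 74.6 CPM in WT and 126, 90.2, 204 and 262 CPM in Y665F, highest in replicates 3 and 4. Parp12 was the single called gene among the relatives of the 38, at 1.41 (SE 0.29). Of 14 inducers of interferon 0 were called in edgeR, with 4 higher and 2 lower at an unadjusted p under 0.05, and of 7 genes restraining it 0, with 1 lower, against the shares of all genes given above for that threshold. With interleukins 14 of the 17 interferon-gamma-linked genes rose, led by Iigp1 at 4.401 (SE 0.51), Gbp2 at 4.003 (SE 0.41), Cxcl10 at 3.44 (SE 0.76) and Igtp at 3.097 (SE 0.29), as did the transducers Stat2 at 1.93 (SE 0.29) and Irf9 at 1.63 (SE 0.22). Irf7 and Socs3 were also called higher with interleukins, at 1.81 and 1.84 on the log2 scale. Against Y665H, Ifng was higher by 3.298 (SE 0.50) and 6 of the 17 interferon-gamma-linked genes were called, led by Gbp2 at 2.23 (SE 0.37) and Irf1 at 1.66 (SE 0.37).

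In whole spleen, 3 of the 38 genes rose in Y665F against WT and 0 fell, where 0.572% of all genes were called higher and 0.628% lower. All 3 belong to the OAS family. Oas2 was at 20.2, 22.4, 24.5 and 22.6 CPM in WT and at 39.2 to 56.8 CPM with a median of 51.4 in the 7 Y665F libraries, without overlap, a log2 fold change of 1.13 (SE 0.13, adjusted p = 6.42e-05). Oas3 was at 19.9, 16.7, 30.9 and 24.1 CPM in WT and 38.2 to 60.999 CPM with a median of 45.1 in Y665F, again without overlap, and rose by 1.01 (SE 0.25, adjusted p = 0.015004). Its call was lost on leaving out any 1 of 3 of the 11 libraries, and its lowest log2 fold change over all alternatives was 0.896. With 1 library left out, 2 to 4 of the 38 genes were called. Oas1g was at 1.26, 1.55, 1.92 and 2.07 CPM in WT and 2.87 to 5.35 CPM with a median of 4.402 in Y665F, the 2 groups not overlapping, and rose by 1.31 (SE 0.22, adjusted p = 0.00143). Oas1a, which shares the 30 bases shown for Oas1g, was at 10.9, 9.903, 13.8 and 12.5 CPM in WT and 18.6 to 24.3 CPM with a median of 22.01 in Y665F, with a log2 fold change of 0.90 (SE 0.14) that passed the adjusted p (0.001003) but not the fold minimum.

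Changes under the fold minimum were more frequent. By adjusted p alone, 17 of the 38 genes were higher in Y665F spleen and 0 lower, between 0.32 and 1.31 on the log2 scale, where 5.63% of all genes were higher and 6.59% lower. The median of the 38 genes was 0.36. The 17 held all 6 members of the OAS family, both Mx genes, Ifit1, Ifitm1, Usp18, Dhx58, Zbp1, Trim25, Ifi35, Xaf1 and Ifi27. Zbp1 was at 42.8, 40.1, 45.8 and 41.3 CPM in WT and 53.6 to 72.1 CPM with a median of 58.1 in Y665F, and Mx1 at 41.7, 37.1, 35.9 and 40.9 CPM and 45.8 to 63.3 CPM with a median of 50.3, neither overlapping. T cell markers summed to 740.1 to 862 CPM in WT and 997 to 1329 CPM in Y665F spleen, neutrophil markers to 201 to 324 and 398 to 975 CPM, and their part in these differences was not tested.

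In Y665H spleen, 5 genes were higher than in WT and 0 lower, where 3.93% of all genes were called higher and 0.438% lower. They were Isg15, Oas3, Isg20, Rsad2 and Cmpk2. Isg15 was at 7.26, 5.76, 13.6 and 10.1 CPM in WT, 9.85, 36.9, 37.5, 29.4 and 32.3 CPM in Y665H and 12.05 to 22.8 CPM with a median of 15.3 in Y665F. Rsad2 was at 237, 178, 288 and 202 CPM in WT, 124, 538, 801, 542 and 609 CPM in Y665H and 110.3 to 273 CPM with a median of 178 in Y665F. Isg20, an exonuclease that degrades viral RNA, was at 23.5, 18.98, 40.6 and 31.2 CPM in WT, 19.5, 83.2, 97.8, 65.8 and 82.3 CPM in Y665H and 18.3 to 36.1 CPM with a median of 22.9 in Y665F. In all 3, replicates 2 to 5 of Y665H lay above every WT and every Y665F library, while replicate 1 lay within or below the WT range.

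The log2 fold changes against WT were 1.66 (SE 0.32) for Isg15, 1.398 (SE 0.27) for Oas3, 1.29 (SE 0.35) for Isg20, 1.21 (SE 0.37) for Rsad2 and 1.05 (SE 0.24) for Cmpk2, with adjusted p of 0.00279, 0.00246, 0.0152, 0.0272 and 0.00643. Without Y665H replicate 1 the same 5 genes stood at 1.91, 1.63, 1.56, 1.49 and 1.27, in that order. Replicates 2 to 5 also held 3594 to 5126 CPM of erythroid and 384 to 1573 CPM of neutrophil markers, against 716 to 1586 and 201 to 324 CPM in WT, with 5 of 7 tested erythroid and 8 of 9 neutrophil markers called higher. Replicate 1 held 769 and 124 CPM of them. The part of these cells in the 5 differences was not tested. Without WT replicate 2 the count of called genes was 2, and without WT replicate 4, Y665H replicate 3 or Y665H replicate 5 it was 3. By adjusted p alone 4 genes were lower in Y665H, Ddx58, Dtx3l, Samd9l and Trim30a, between -0.63 and -0.23 on the log2 scale, where 10.7% of all genes were higher and 9.05% lower.

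Between the 2 mutants, Rsad2 and Isg20 were lower in Y665F than in Y665H spleen and 0 genes were called higher, where 1.27% of all genes were higher and 4.01% lower. The log2 difference, Y665F minus Y665H, was -1.47 (SE 0.31) for Rsad2 (adjusted p = 0.00212) and -1.43 (SE 0.29) for Isg20 (adjusted p = 0.00185), or -1.75 and -1.69 without Y665H replicate 1. By adjusted p alone, 18 genes were higher in Y665F and 5 lower, where 10.5% and 15.3% of all genes were. The 18 included Oas2 at 0.87 (SE 0.12), Zbp1 at 0.79 (SE 0.09) and Ddx58 at 0.48 (SE 0.07). The 5 lower were Rsad2, Isg20, Isg15, Cmpk2 and Ifitm2. Ddx58, which encodes the RNA sensor RIG-I, was at 211, 219, 184 and 198 CPM in WT, 169, 165, 141, 155 and 146 CPM in Y665H and 195 to 245 CPM with a median of 219.8 in Y665F, so the Y665H libraries lay below all others. Among the pathway lists 0 genes were called between Y665F and WT spleen in edgeR, with 5 of the inducers and 5 of the restraining genes higher at an unadjusted p under 0.05, where 13.7% of all genes were higher and 14.7% lower. Oas1e, an OAS relative, was higher in Y665H than in WT by 2.15 (SE 0.49), and Socs1, which restrains JAK kinases, was higher in Y665F than in Y665H by 1.07 (SE 0.23). Oas1e was at 0.257 CPM in Y665H replicate 1, within the WT range, and at 1.15 to 1.49 CPM in Y665H replicates 2 to 5.

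**Figure D4:**
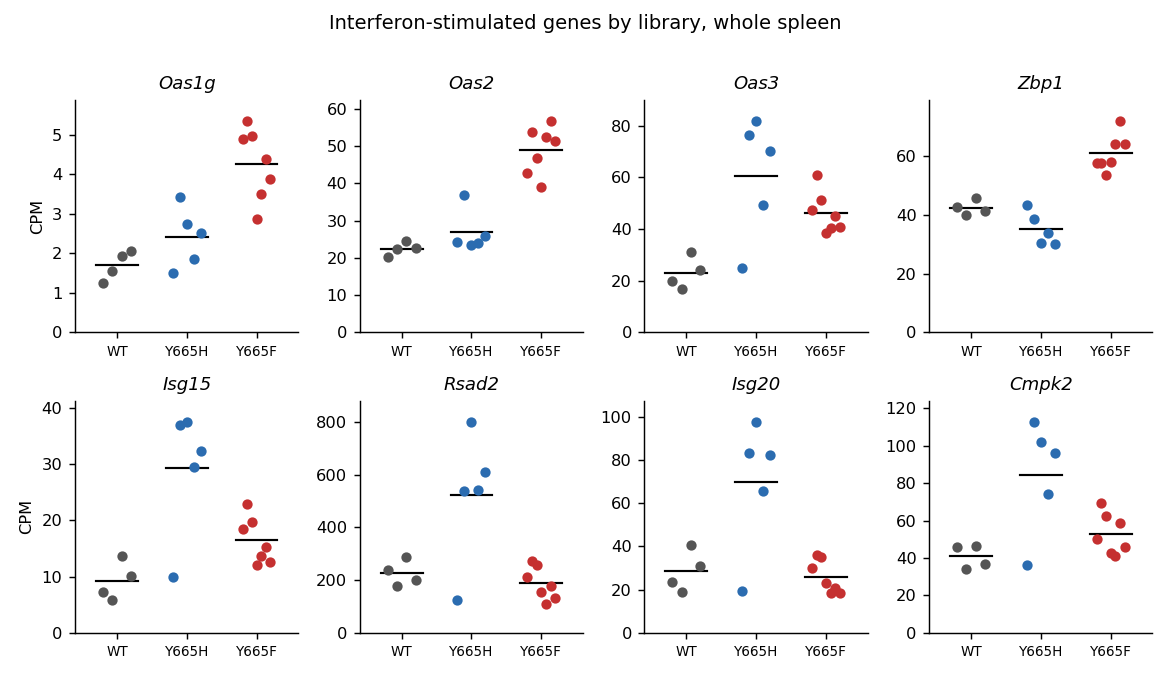
CPM per library (y axis, linear from 0) of 8 genes in WT, Y665H and Y665F spleens (x axis), 1 symbol per library and a bar at the group mean. Oas2 lies higher in all 7 Y665F libraries than in WT, and Isg15, Isg20 and Rsad2 lie higher in 4 of 5 Y665H libraries.

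In null CD4 cells, which lack Stat5a and Stat5b, Ifit3 rose with N642H and with Y665F. It was at 0.476, 0.635 and 0.679 CPM with empty vector, 1.47, 2.02 and 1.35 with STAT5B, 2.55, 3.22 and 2.83 with N642H, 0.588, 2.599 and 1.52 with Y665H and 2.51, 2.51 and 1.56 with Y665F. All libraries given STAT5B, N642H or Y665F lay above the empty vector, while Y665H replicate 1 lay within its range. The log2 fold change was 2.27 (SE 0.41) for N642H (adjusted p = 0.00157) and 1.89 (SE 0.41) for Y665F (adjusted p = 0.00713), both called. For STAT5B it was 1.45 (SE 0.41, adjusted p = 0.0854), or 1.44 with the replicate number as a block (adjusted p = 0.0128). For Y665H it was 1.38 (SE 0.41, adjusted p = 0.896). Its near copy Ifit3b moved with it, by 3.14 (SE 0.66) with N642H and 2.85 (SE 0.67) with Y665F, as did the relative Ifit1bl1, by 3.704 (SE 0.45) and 3.59 (SE 0.45).

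The other members pointed down more often than up in these 2 groups. With N642H, 1 of 38 genes was called higher (Ifit3) and 0 lower, where 1.58% and 1.3% of all genes were, and with Y665F 1 was higher (Ifit3) and 1 lower, where 1.39% and 0.979% were. The median log2 fold change was -0.45 with N642H and -0.40 with Y665F, against 0.01 and -0.02 over all genes, and 9 of 38 estimates were positive in each. Cmpk2 was at 6.77, 7.73 and 3.86 CPM with empty vector, 5.503, 7.07 and 5.15 with Y665H and 2.69, 3.01 and 2.34 with Y665F. All Y665F values lay below all others of these 3 groups, and Cmpk2 fell, with a log2 fold change of -1.19 (SE 0.24, adjusted p = 0.00414). Trim21, a cytosolic antibody receptor and ubiquitin ligase, was at 51.6, 54.8 and 50.4 CPM with empty vector, 32.2, 33.4 and 46.6 with STAT5B, 24.8, 28.6 and 31.5 with N642H, 46.2, 45.4 and 53.9999 with Y665H and 25.2, 26.7 and 35.6 with Y665F. Its log2 fold changes of -0.89 (SE 0.15) for N642H (adjusted p = 0.00102) and -0.84 (SE 0.15) for Y665F (adjusted p = 0.00183) passed the adjusted p and not the fold minimum. Herc6, the ligase that attaches ISG15 in mice, was at -0.65 with N642H (adjusted p = 0.00468).

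Replicate numbers paired the CD4 libraries, and the block raised the counts. The shares of all genes printed for the CD4 comparisons are those without the block, so blocked counts cannot be set against them. With the block 2 genes were called for N642H in null cells, adding Ifitm3 at 1.54, and 5 for Y665F, adding Ifitm3 at 1.42, Mx2 at -1.26 and Oas1a at -1.39. Without the block, leaving out empty vector replicate 3 gave 2 called genes for N642H. For Y665F, leaving out Y665F replicate 3 gave 7 called genes and leaving out empty vector replicate 2 gave 1. Ifitm3, a membrane protein that blocks viral entry, was at 2.27, 6.19 and 6.96 CPM with the empty vector and 12.6, 19.8 and 6.89 with Y665F, higher in 2 of 3 replicates of the same number and about equal in replicate 3.

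STAT5B in null cells gave 0 called genes of the 38 in edgeR and 1 by DESeq2, where 0.358% of all genes were called higher and 0.119% lower. At an unadjusted p under 0.05, 1 was higher and 5 lower, where 7.81% of all genes were higher and 6.97% lower. Beside Ifit3, Trim21 was at -0.49 (adjusted p = 0.113) and Herc6 at -0.36 (adjusted p = 0.207) on the log2 scale. Y665H also gave 0 in edgeR and by DESeq2, where 0.0249% of all genes were called higher, and at an unadjusted p under 0.05 3 were higher and 0 lower, where 3.42% and 1.66% of all genes were. Beside Ifit3 the smallest p belonged to Dhx58 at 0.71 (adjusted p = 0.896) and Ddx58 at 0.37 (adjusted p = 0.896). Between the mutants, 3 genes were lower with Y665F than with Y665H and 0 higher, where 0.776% of all genes were lower and 1.02% higher. The log2 differences were -1.77 (SE 0.38) for Mx2 (adjusted p = 0.00738), -1.13 (SE 0.24) for Cmpk2 (adjusted p = 0.00696) and -1.01 (SE 0.20) for Xaf1 (adjusted p = 0.00384). Mx2 was at 2.73, 3.399 and 5.81 CPM with Y665H and 0.642, 0.949 and 1.97 CPM with Y665F, and Xaf1, a factor linked to cell death, at 18.9, 20.9 and 23.2 and 11.001, 8.04 and 12.3 CPM, neither overlapping. With the block 7 were called, adding Ifitm3 at 1.07, Isg15 at -1.12, Mx1 at -1.68 and Oas1a at -1.45, and without Y665H replicate 2 the unblocked count was 1. Without Y665H replicate 1 or Y665F replicate 3 it was 5.

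In WT CD4 cells, which keep their own Stat5a and Stat5b, Ddx58 fell with N642H and with Y665F. It was at 33.02, 34.8 and 24.1 CPM with empty vector, 20.1, 19.95 and 15.98 with STAT5B, 13.9, 16.1 and 14.01 with N642H, 25.3, 29.4 and 23.6 with Y665H and 14.5, 17.2 and 13.6 with Y665F. The libraries with N642H and Y665F lay below all with the empty vector or Y665H, those with STAT5B lay below the empty vector too and overlapped the N642H and Y665F ranges, and Y665H overlapped the empty vector. The log2 fold change was -1.06 (SE 0.16) with N642H (adjusted p = 0.00328), -1.02 (SE 0.16) with Y665F (adjusted p = 0.00639), -0.71 (SE 0.16) with STAT5B (adjusted p = 0.685) and -0.23 (SE 0.16) with Y665H (adjusted p = 1.00000). It was the single called gene of the 38 with N642H and with Y665F, lower in both, where 0.195% and 0.2% of all genes were lower and 0.79% and 0.507% higher. Leaving out empty vector replicate 2 ended the call with N642H, and leaving out empty vector replicate 1 or 2 or Y665F replicate 1 ended the call with Y665F. Trim21 was at -0.70 with N642H (adjusted p = 0.00693) and -0.56 with Y665F (adjusted p = 0.0257), and Herc6 at -0.59 and -0.59 (adjusted p = 0.0117 and 0.0171).

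Ifitm1 and Ifitm3 in WT cells were called with the replicate block and not without it. Ifitm3 was at 20.1, 41.3 and 8.203 CPM with empty vector, 51.1, 87.5 and 16.1 with STAT5B, 83.6, 131 and 34.97 with N642H, 18.6, 43.4 and 12.8 with Y665H and 67.9, 148 and 51.3 with Y665F. Within each replicate number STAT5B, N642H and Y665F were above the empty vector, although the groups overlapped since replicate 2 was highest and replicate 3 lowest in every group. Unblocked, its log2 fold change with Y665F was 1.94 (SE 0.67, adjusted p = 0.187), and with the block it was 2.08 (adjusted p = 5.74e-08). With the block Ifitm3 was at 1.15 for STAT5B and 1.93 for N642H, and Ifitm1 at 1.22, 1.55 and 1.76 for STAT5B, N642H and Y665F, all called. The blocked counts were 2 for STAT5B, 4 for N642H with Rtp4 at -1.63 added, and 4 for Y665F with Oas2 at -1.78 added. The share of all genes called with the block is not given. Between Y665F and Y665H, 0 were called unblocked in edgeR and by DESeq2, where 0.166% of all genes were called higher and 0.0146% lower. At an unadjusted p under 0.05, 2 were higher and 9 lower, where 5.06% of all genes were higher and 5.64% lower, and the block called Ifitm1 at 1.57 and Ifitm3 at 1.88. Ddx58 stood at -0.78 there (adjusted p = 0.0528).

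STAT5B and Y665H in WT cells gave 0 called genes in edgeR without the block and 0 by DESeq2, where 0.00975% and 0.00488% of all genes were higher. At an unadjusted p under 0.05, 1 was higher and 4 lower with STAT5B, where 1.41% and 1.29% of all genes were. With Y665H, 0 were higher and 0 lower, where 0.132% and 0.663% of all genes were. With Y665H the smallest p belonged to Trim30a at -0.24, Ddx58 at -0.23 and Trim21 at -0.19 on the log2 scale (adjusted p = 1.00000 for Trim30a).

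**Figure D5:**
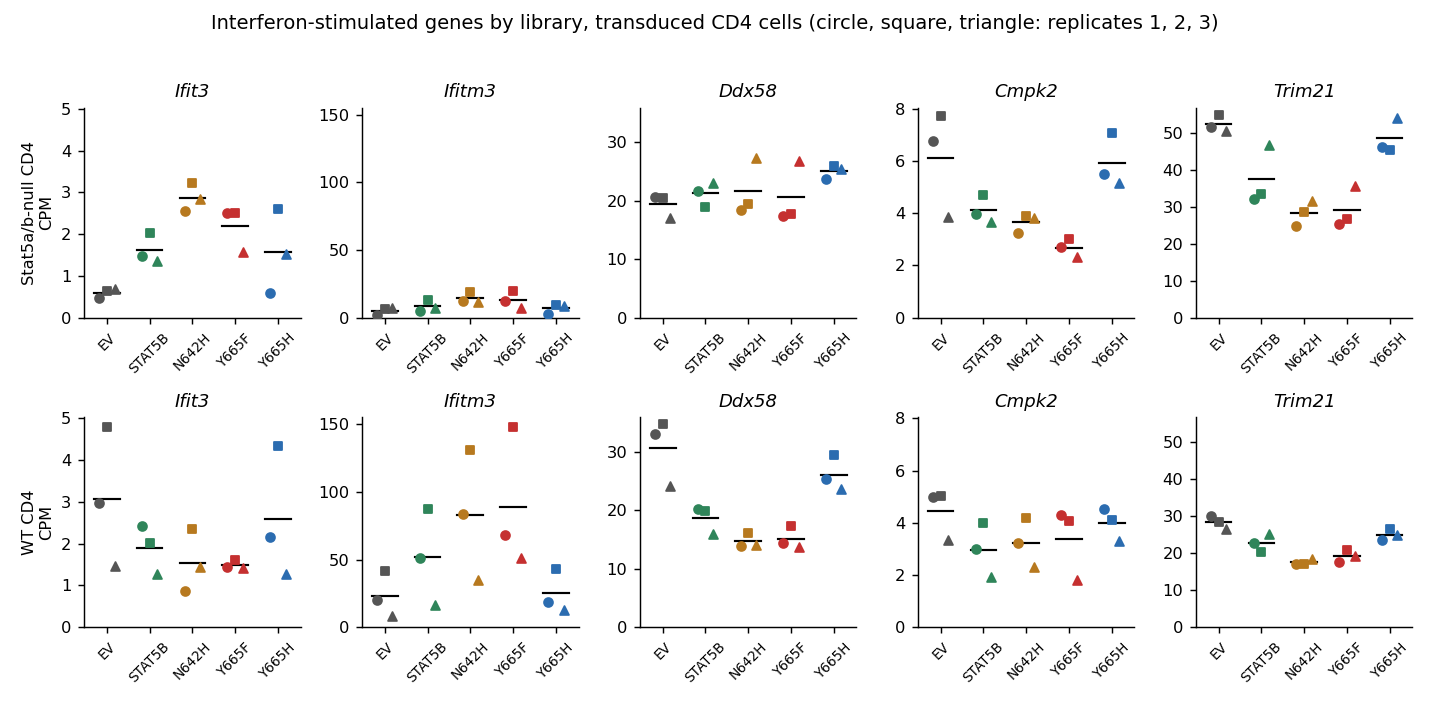
CPM per library (y axis, linear from 0, shared within a gene) of 5 genes in null and WT CD4 cells by vector (x axis), with circles, squares and triangles for replicates 1, 2 and 3 and a bar at the group mean. Ifit3 lies lowest in null cells with the empty vector at 0.476 to 0.679 CPM, Ddx58 falls with N642H and Y665F in WT cells, and Ifitm3 is highest in replicate 2 and lowest in replicate 3 of every WT group, the 2 backgrounds having been scaled separately.

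The null and WT backgrounds were compared with all 30 CD4 libraries scaled together. With the empty vector, 4 genes were lower in null than in WT cells and 0 higher, where 2.13% of all genes were lower and 2.55% higher. Ifit3 was at 0.467, 0.609 and 0.656 CPM in null and 3.005, 5.07 and 1.49 in WT cells, a log2 difference, null minus WT, of -2.46 (SE 0.49, adjusted p = 0.000897), and Ifitm3 at 2.23, 5.94 and 6.73 and 20.3, 43.5 and 8.37 CPM, a difference of -2.28 (SE 0.66, adjusted p = 0.02003). The difference was -1.304 (SE 0.38) for Oas3 (adjusted p = 0.0203) and -1.03 (SE 0.22) for Ifit2 (adjusted p = 0.00151). None of the 4 overlapped between backgrounds. Among the 38 genes, 13 were higher and 6 lower in null cells without overlap (50%), against 26.8% of all genes without overlap. The median over the 38 genes was -0.01, with 18 positive. Leaving out null replicate 2, or WT replicate 1 or 2, reduced the count to 2, and the block called 3, without Ifit2. Whether replicate numbers also pair libraries across the 2 backgrounds was not checked. Blocked results here and for the interactions assume that they do. Among other genes of the pathway, Iigp1 and Ifng were higher in null cells, by 4.78 (SE 0.68) and 3.396 (SE 0.74), as was Irf1 by 2.198 (SE 0.41). Ifit1bl1 and Socs1 were lower, with differences of -5.01 (SE 0.58) and -3.17 (SE 0.36).

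The response to a vector was then compared between backgrounds by an interaction term. For Ifit3 the Y665F response in null exceeded that in WT cells by 2.97 (SE 0.67, adjusted p = 0.0324) and the N642H response by 3.296 (SE 0.67, adjusted p = 0.0142). For Ddx58 the differences were 1.14 (SE 0.25, adjusted p = 0.0273) and 1.28 (SE 0.25, adjusted p = 0.0106). These 2 genes were the called ones for both vectors, where 0.382% of all genes were higher for Y665F and 0.3% for N642H, and 0.0364% and 0.041% lower. Both terms share the empty vector libraries of each background, so they are not independent. Ifit2 was at 1.29 (SE 0.30) for N642H (adjusted p = 0.0534), and the block called it at 1.26. The Y665F count was 0 without any 1 of the null empty vector replicates, WT empty vector replicate 1 or 2, or WT Y665F replicate 1, and 1 without any 1 of the null Y665F replicates or WT Y665F replicate 2 or 3. The N642H count was 0 without WT empty vector replicate 2, and 1 without null empty vector replicate 1 or WT N642H replicate 1.

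Compared per length, the order of the members differed between tissues. In CPM per kilobase of exon, Samd9l, a restriction factor for poxviruses, led in WT T cells at 128, followed by Dtx3l at 78.998 and Trim30a at 78.7, and in WT spleen at 143, followed by Trim30a at 79.9 and Rsad2 at 52.2. In Y665H spleen Rsad2 led at 121. In CD4 cells with the empty vector Ifitm2 led at 127 in null and 196 in WT cells, followed by Ifi27 at 47.8 and 45.4. The lowest level in the WT T cells and WT spleen was that of Oas1g, at 0.0307 and 0.726. In the CD4 cells Rsad2, which led in Y665H spleen, was among the 3 lowest of 38 in WT cells with the empty vector at 0.0387, so the differences of such genes rest on few reads there. Of 18 type I interferon genes, the highest value was 3.49 CPM in spleen, 0.347 CPM in null and 0.231 CPM in WT CD4 cells.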

How the data were processed

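Gene counts of 60 of the 61 libraries (17 groups of 3 to 7) were used as deposited. The library labelled Y665H T cell replicate 4 was left out, a departure from the planned 15-library fit, because its counts are the sum of those of replicates 1 and 2 in every row. Per the labels and the study's methods, the authors trimmed reads of stranded, ribosomal RNA-depleted paired-end libraries with Trimmomatic (0.36), aligned them with STAR to mm10 and counted them per gene with HTSeq (0.9.1). The annotation and the strand setting are not given in the sources used here, and without them reads of a gene and of an overlapping antisense gene may not be separated. The study's RUVSeq step was not repeated because its form is not stated. The labels' extraction text names mammary tissue for all libraries, and groups were taken from titles. The 5 closing lines of each file that name no gene, which held 28.4 to 85.7% of a library’s read pairs, were left out.

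The 38 genes, their roles and the other lists were chosen with earlier results of these data known. Some genes of those lists are not reported here. Each experiment (splenic T cells, spleen, null CD4, WT CD4, and all CD4 libraries for null against WT and the interactions) was fitted on its own in R (4.3.3) with edgeR (4.0.16): genes with at least 10 reads over the fit, TMM scaling, a group-means model, glmQLFit and glmQLFTest, and Benjamini-Hochberg adjustment over all genes of the fit (19418 to 22295 genes). Calls required an adjusted p below 0.05 with a log2 fold change above 1 in size. CPM are TMM-scaled, and levels were compared between genes only per kilobase of GENCODE exon. The text names all called members up to 12 per comparison, above that the 8 of largest fold change plus the largest of each role not yet named, and with under 3 called the 3 of smallest p. Per-library values were given for called genes whose groups did not overlap and for further genes chosen after their values were seen.

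Depth was 2017012 to 49850689 reads on genes. Where nothing says that libraries came from separate animals or cultures, p-values measure only the spread between these samples. Same-numbered CD4 libraries deviated from their group means together (all 30 of 30 pairs above a correlation of 0.1 in null and in WT cells, medians 0.465 and 0.633), so the replicate block is given beside those results. Alternatives were DESeq2 (1.42.0), RLE factors, library totals, filterByExpr, no filter, no fold minimum, only the groups compared, the block and each library left out. Leaving out Y665F T cell replicates 3 and 4 together, counting the summed Y665H library as a sample, and using it in place of replicates 1 and 2 were added after seeing the data. Scripts were tested on simulated counts.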

Additional observations from a re-analysis of the deposited data

Results flagged for a closer look

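Among 40 sets of 4 T cell libraries, 2 held a library far from the others by Dixon's criterion, as did 1 of 21 spleen sets, where chance flags about 1 in 20. Rsad2 stood at 323 CPM in Y665F T cells with interleukins, replicate 3, the next library being at 25.7 CPM. Dtx3l stood at 542 CPM in WT T cells, replicate 1, the next at 429 CPM. Oas2 stood at 36.8 CPM in Y665H spleen, replicate 2, the next at 25.9 CPM.

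Responses differed between null and WT CD4 cells, by interaction terms in edgeR over all 30 CD4 libraries, for 2 genes. For Ifit3 the log2 fold change in null cells exceeded that in WT cells by 2.97 with Y665F and 3.30 with N642H. For Ddx58 the differences were 1.14 with Y665F and 1.28 with N642H. Adjusted p lay between 0.0106 and 0.0324, n = 3 per group.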

How the results depend on the processing

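Values below are counts of the 38 genes called, given without the share of all genes called under each setting. For Y665F against WT T cells, 9 in the main test, DESeq2 gave 16, the replicate block 4, and leaving out Y665F replicates 3 and 4 gave 0, with Rsad2 reversed at -0.045. For Y665F against Y665H T cells, 10, that last setting gave 2. Counting the summed Y665H library as a sample gave 9, 0, 14 and 17 for Y665F against WT, Y665H against WT, Y665F against Y665H and with against without interleukins (9, 0, 10 and 17 in the main test), and using it in place of replicates 1 and 2 gave 9, 0, 8 and 17. Without a fold minimum the spleen counts of 3 (Y665F against WT), 5 (Y665H against WT) and 2 (Y665F against Y665H) became 17, 9 and 23, and Y665H against WT gave 3 with the replicate block and with only the groups compared. In null CD4 cells the replicate block gave 1 for STAT5B (main 0), 2 for N642H (main 1), 5 for Y665F (main 2) and 7 for Y665F against Y665H (main 3). DESeq2 gave 1 for STAT5B and 5 for Y665F against Y665H. No fold minimum gave 9 for N642H, 6 for Y665F and 7 for Y665F against Y665H, and for N642H no filter and only the groups compared gave 2 each. In WT CD4 cells the block gave 2 for STAT5B (main 0), 4 for N642H (main 1), 4 for Y665F (main 1) and 2 for Y665F against Y665H (main 0). There, no fold minimum gave 4 for N642H and 3 for Y665F, and DESeq2 2 for Y665F. For null against WT, 4, no fold minimum gave 11. For the interactions, 2 each, only the groups compared gave 1 for Y665F.

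Leaving out each library gave 3 to 14 for Y665F against WT T cells, 6 to 14 against Y665H, 2 to 5 for Y665H against WT spleen, 1 to 2 for N642H and 1 to 7 for Y665F in null cells, 1 to 5 between Y665F and Y665H there, 0 to 1 for N642H and for Y665F in WT cells, 2 to 5 for null against WT, and 0 to 2 (Y665F) and 0 to 3 (N642H) for the interactions. Of 1025 values of single genes, 864 kept direction and call, 160 kept direction only and 1 reversed, in Rsad2. The block changed no other count by more than 1.5 times. In T cells 5 of 19 and in spleen 4 of 13 same-numbered pairs had a correlation above 0.1, so the numbers do not pair those samples, and the block is given here only. Scaling by RLE factors, DESeq2's factors or library totals shifted the median of all genes by over 0.1 only in T cells, to 0.205, 0.22 and 0.204 for Y665F against WT, where the members' median was then at least 0.91, to -0.011, 0.018 and 0.0079 for Y665H against WT, and to -0.274, -0.266 and -0.309 with against without interleukins. The cause of these changes was not tested. Depth limits the Y665H T cells most.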
